A study of Homo sapiens with 12 samples.

Results

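The genes described here copy DNA, supply its building blocks and repair it during S phase, the stage of the cell cycle in which the genome is duplicated. The list held 53 genes: 15 for origin licensing and the replicative helicase, 19 for polymerases, clamp, clamp loader and strand joining, 5 for nucleotide synthesis, 3 for S-phase entry, 4 for chromatin assembly and DNA methylation, and 7 for S-phase repair. Members were found by gene symbol in the platform annotation, and where a gene had several probe sets, the probe set with the highest mean over all arrays stood for it. A probe set was found for 51 members, and 45 of them were bright enough to be tested, among 10265 genes tested in all. The other members, BRCA2 and FANCD2, had no usable probe set and enter only the promoter counts below. Expression was measured in LNCaP, a prostate cancer cell line that responds to androgen, on 12 Affymetrix arrays in 4 groups of 3. Cells were kept without androgen for 48 h and transfected with control siRNA or with siRNA against SRF, the gene of serum response factor. After a further 42 h they were given 5 nM R1881, a synthetic androgen, or ethanol vehicle, for 48 h. The groups were thus control siRNA with vehicle, control siRNA with R1881, SRF siRNA with vehicle and SRF siRNA with R1881, and all of them shared the androgen-free culture and a transfection. The labels call the arrays biological replicates without saying whether cultures were separate, so every p-value below reflects array-to-array spread, which may be technical, in 1 cell line. The number of distinct SRF siRNAs is not given in the sources used here.

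Before S phase, ORC, CDC6 and CDT1 load the ring-shaped MCM2 to MCM7 helicase onto origins, and CDC45 and the GINS complex later switch it on. Primase and polymerase alpha start each new strand, the clamp loader RFC places the PCNA clamp, and polymerases delta and epsilon extend the strand, while RPA coats single-stranded DNA. Ribonucleotide reductase, thymidylate synthase, thymidine kinase and dUTPase set the supply of DNA precursors. Many of these genes are textbook targets of E2F transcription factors, which the RB protein family holds in check until cyclin E and CDK2 activity rises at S-phase entry. Androgen supports the growth of LNCaP cells at low doses, and higher doses of R1881 are known to slow their division.

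Promoter sequence shows what several members share beyond their function. A window from 250 bases before to 50 bases after an annotated start was matched in RefSeq (GRCh38.p14) for 45 of the 53 members. The 4 E2F octamers TTTGGCGC, TTTCCCGC, TTTGCCGC and TTTCGCGC were searched on both strands. The stretches below are shown because TYMS, UHRF1, RFC3 and MCM6 are among the genes whose response to R1881 differed with SRF siRNA, DUT and PCNA fell with R1881 under both siRNAs, and POLA2 carries an octamer in the same kind of window without having passed any test. They lie at chr18:657594-657641 (plus strand, TYMS), chr19:4909467-4909500 (plus strand, UHRF1), chr13:33818074-33818121 (plus strand, RFC3), chr2:135876502-135876615 (minus strand, MCM6), chr15:48332135-48332196 (plus strand, DUT), chr20:5126654-5126701 (minus strand, PCNA) and chr11:65261889-65261936 (plus strand, POLA2). All are upstream of the start, read 5′ to 3′ on the strand of the gene, and capitals mark the octamers; in MCM6 the capitals are 2 overlapping octamers, one on each strand, at each of 2 places.
TYMS: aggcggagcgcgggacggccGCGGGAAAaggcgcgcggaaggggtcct
UHRF1: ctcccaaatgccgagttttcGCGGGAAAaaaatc
RFC3: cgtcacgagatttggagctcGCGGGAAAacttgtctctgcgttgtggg
MCM6: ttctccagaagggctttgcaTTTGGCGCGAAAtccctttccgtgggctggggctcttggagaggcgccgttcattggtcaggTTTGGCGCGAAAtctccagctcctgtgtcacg
DUT: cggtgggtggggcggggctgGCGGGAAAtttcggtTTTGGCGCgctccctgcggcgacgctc
PCNA: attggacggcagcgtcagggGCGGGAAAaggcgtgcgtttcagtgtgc
POLA2: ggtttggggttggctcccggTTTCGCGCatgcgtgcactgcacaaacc

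At least 1 octamer was present for 23 of the 45 members with a window (51.1%), against 6.81% of the 8514 tested genes with a window and 3.99% of all 27305 genes of the table. The 45 include members whose expression was not tested. Of the 37 tested members with a window, 18 held an octamer. The CHR hexamer TTTGAA, linked to genes of later cell cycle stages, was present for 4.44% of members, 13.2% of tested genes and 18.2% of all genes. The CCAAT pentamer was present for 55.6%, 44.5% and 39.7%, and the hexamer AGAACA of androgen response elements for 13.3%, 12.5% and 17.5%. No member window held a CArG box, the motif bound by SRF (CC, then 6 bases of A or T, then GG), which 1.47% of tested genes held. RRM2 and TK1, which fell strongly with R1881, had no octamer in their windows, and both had CCAAT pentamers. These are letter matches in a short window and do not show binding.

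Array quality bears on all members. The silencing target behaved as labelled: SRF read 5.91 to 6.50 on the control siRNA arrays and 4.56 to 5.06 on the SRF siRNA arrays, in log2 units of the deposited signal. KLK3, the androgen-induced PSA gene, rose from a mean of 11.6 to 14.9 with R1881 under control siRNA and from 10.4 to 13.9 under SRF siRNA. All 8 LNCaP markers with a probe set (of 10 listed) exceeded a log2 value of 4 on every array, against 2 of 7 basal or mesenchymal, 1 of 8 fibroblast and 0 of 7 leukocyte markers. KRT5, DCN, PTPRC and CD3E stayed near background. The summed log2 level of the mesenchymal list ran from 24.9 in the control R1881 group to 27.6 in the SRF R1881 group, mainly through VIM, at 6.31 and 8.25. The fibroblast sum ran from 24.6 in the control R1881 group to 29.1 in the SRF vehicle group, mainly through COL3A1, at 2.97 and 7.91, and the leukocyte sum from 17.8 to 19.3, mainly through LYZ. The part of these shifts in the members' results was not tested. RNA integrity, as the GAPDH 3′ minus 5′ log2 difference, was 0.14 ± 0.09 (SD, n = 3) in control vehicle, 0.46 ± 0.02 in control R1881, 0.36 ± 0.04 in SRF vehicle and 0.49 ± 0.14 in SRF R1881 arrays. Arrays of the same group correlated at 0.9964 to 0.9981.

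**Figure D1:**
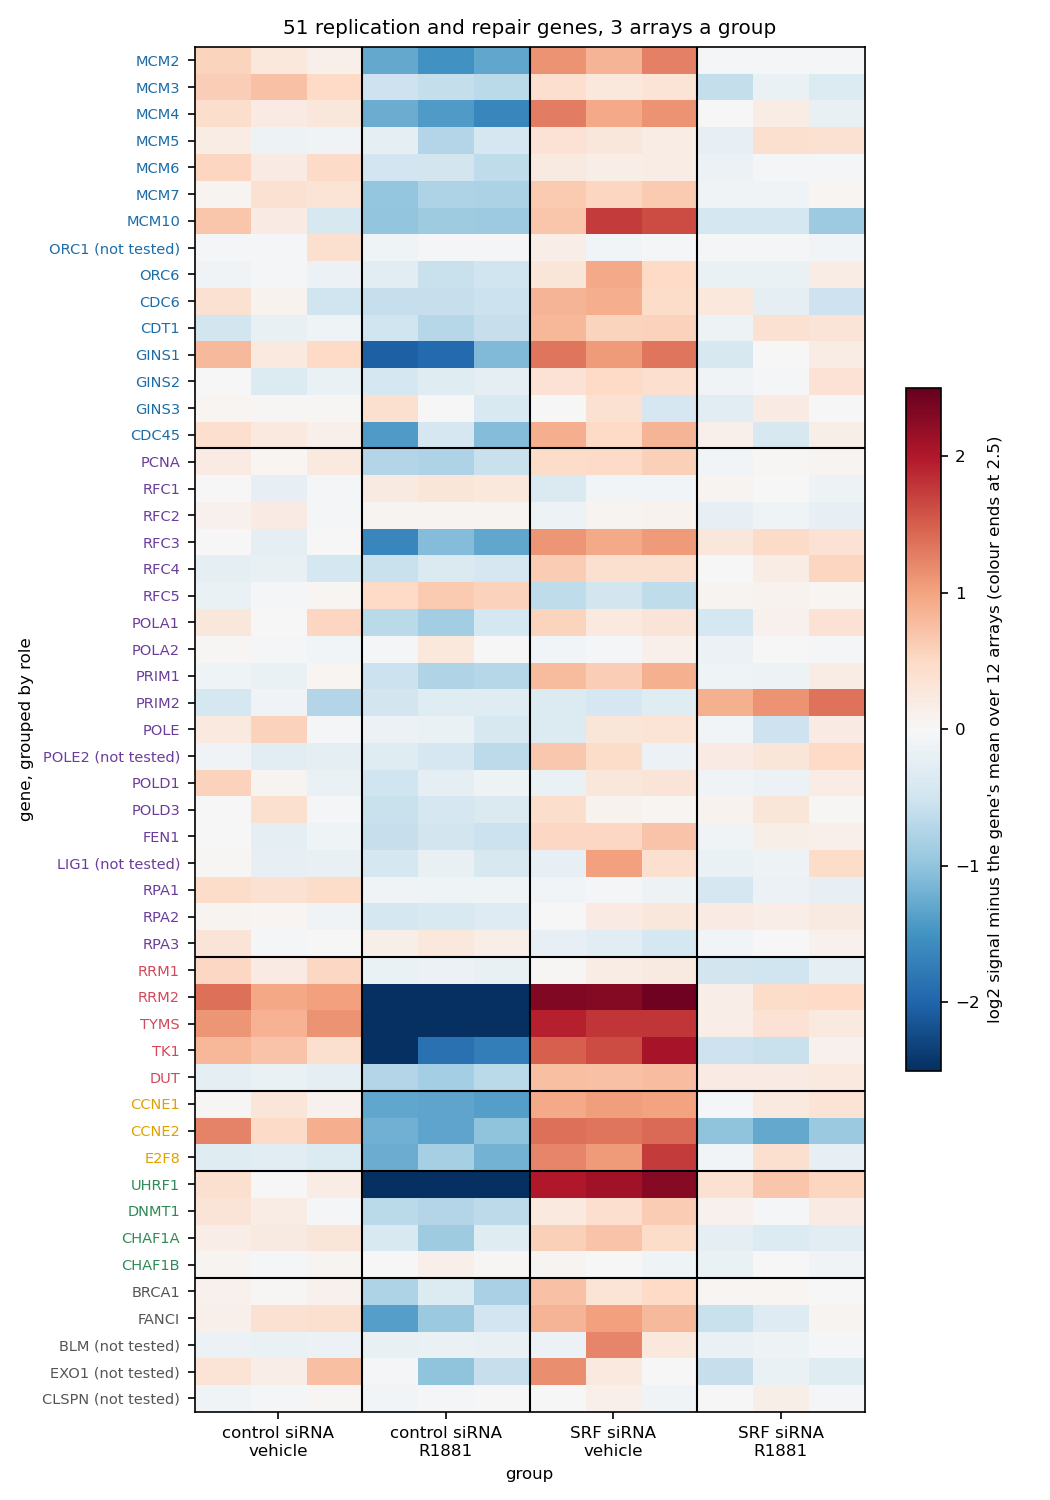
Log2 signal of the 51 replication and repair genes with a probe set (rows, in blocks from the top: licensing, polymerase and clamp, nucleotide, S-phase entry, chromatin, repair) on each of the 12 arrays (columns, in 4 groups of 3), as the difference from the mean of the gene over all arrays; the colour scale stops at 2.5 either way. The control R1881 columns are the lowest and the SRF vehicle columns the highest for most rows; the RFC5 row shows the brightest of its probe sets, which runs opposite to its other 2.

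R1881 lowered most of the replication genes in cells with control siRNA. Of the 45 tested members 31 fell (68.9%), 2 rose and 12 did not pass the test, where 33.8% of all tested genes fell and 26.9% rose (limma, adjusted p under 0.05). The median member changed by -0.59 on the log2 scale, against -0.05 over all tested genes. At least a 2-fold fall was found for 15 members, among them RRM2, TYMS and TK1 of nucleotide synthesis, UHRF1, GINS1 and CCNE2. Over all 10265 tested genes 725 fell at least 2-fold. MCM10, CDC45 and E2F8 had means of 4 or less over the 12 arrays. Without them 28 of 42 members fell, 13 at least 2-fold. Of the 2 members counted as higher, RFC5 had other probe sets that fell. Less RNA per cell and fewer cells in S phase cannot be told apart in these bulk samples. Because a member passed the filter if it was bright in any group of 3, the counts describe the members that passed; 36 of them exceeded 4 on all 12 arrays, and 6 members with a probe set stayed too dim.

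With SRF siRNA the same hormone also lowered most members, and by less for RRM2, TYMS and UHRF1. In those cells 29 of 45 members fell (64.4%), 3 rose and 13 did not pass, against 27.7% lower and 25.5% higher among all tested genes. The median member changed by -0.52, against -0.03 over all genes. There were 26 members lower under both siRNAs, 5 lower with control siRNA only, 3 lower with SRF siRNA only and 7 that passed in neither. Those group sizes rest on separate tests, and no such overlap over all tested genes is given beside them. They therefore do not show an overlap particular to the members. The difference between the R1881 effects was tested in its own right. It was called above 0 for 14 of 45 members and called below 0 for 0 (limma, adjusted p under 0.05). Of all genes 13.2% were called above and 10.5% below. At an unadjusted p under 0.05 the members numbered 17 and 0, and all genes 2037 and 1603. For 30 of 45 members the R1881 effect was less negative or more positive with SRF siRNA, as for 5513 of 10265 genes. Across the 45 members the R1881 changes under the 2 siRNAs, which share no arrays, correlated with r = 0.771 (Pearson) and rho = 0.856 (Spearman), against 0.804 and 0.773 over all genes, given as a description.

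**Figure D2:**
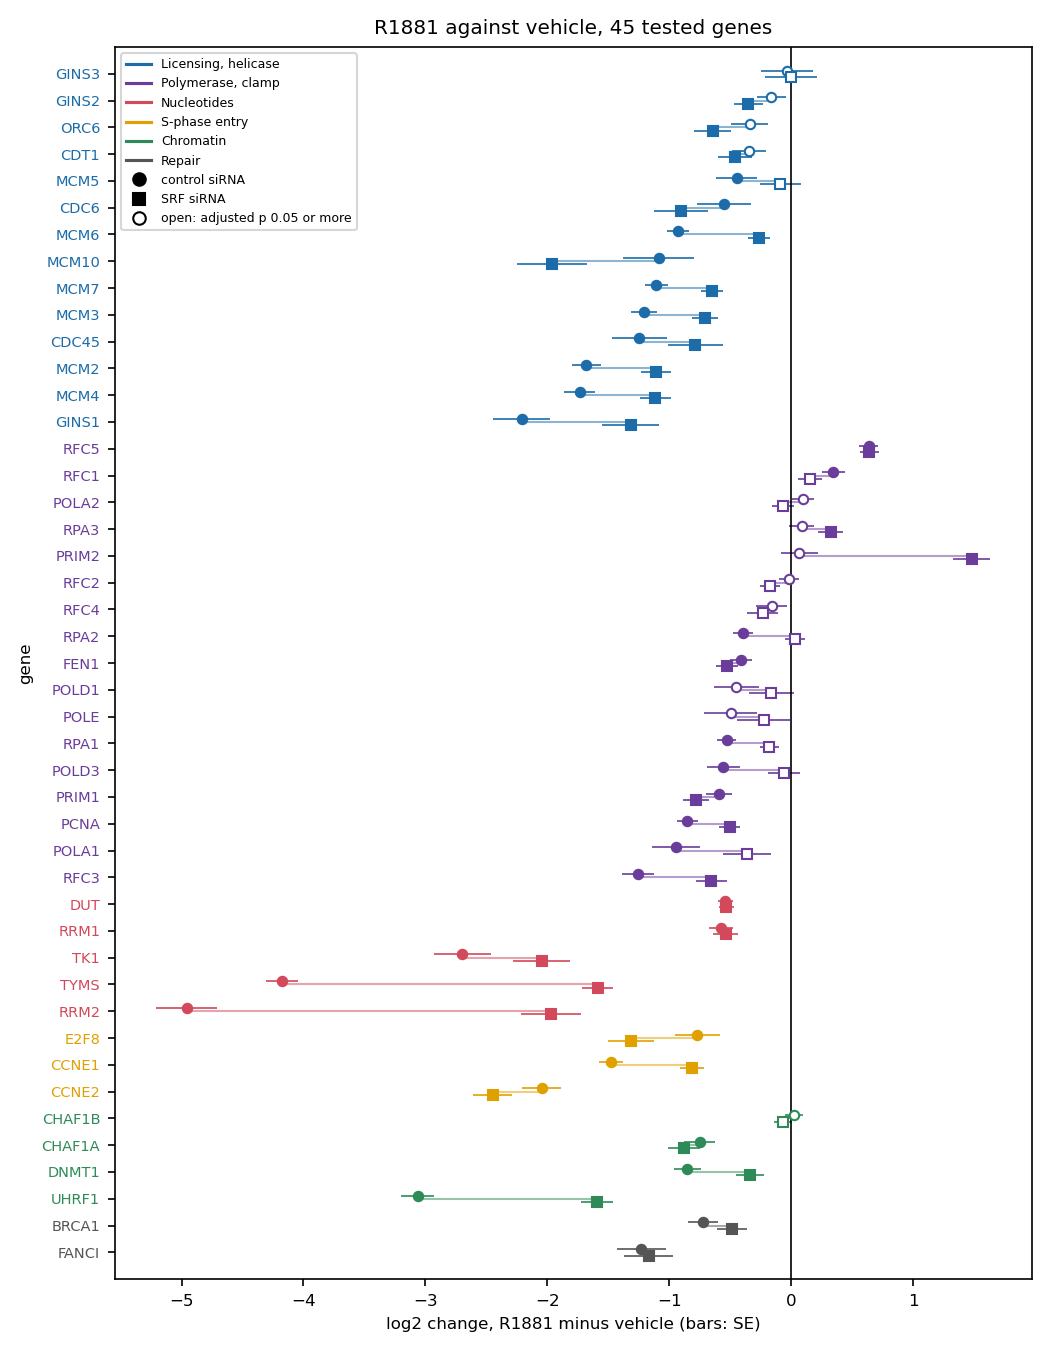
Log2 change with R1881 against vehicle for the 45 tested genes, with its standard error, under control siRNA (circles) and SRF siRNA (squares); filled symbols have an adjusted p under 0.05 in limma, and a line joins both values of a gene. RRM2 and TYMS move farthest between the symbols, from -4.96 to -1.97 and from -4.18 to -1.59, and PRIM2 is the gene that rises most with SRF siRNA, by 1.48.

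The count of members whose R1881 effect differed depended on single arrays. It was 8 without the first control vehicle array, 9 without the first control R1881 array, 7 without the second SRF vehicle array, and 9 or 8 without the second or the third SRF R1881 array. It was 9 with the GAPDH 3′ to 5′ difference as a covariate. Calls over all tested genes dropped too: 1359 were above 0 with all arrays and 1187 with the covariate. In the fits just named with 1 array left out, 1094 to 1230 were above 0. RRM2, TYMS, UHRF1, PRIM2, CCNE1 and MCM6 passed in all 12 fits that left out 1 array, and RPA2 in 11. MCM4 passed in 8 of those fits, MCM7 in 7, MCM2 and RFC3 in 5, MCM3 in 4, and RPA1 and DNMT1 in 3.

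All 5 nucleotide synthesis genes fell with R1881 under both siRNAs, where 33.8% (control siRNA) and 27.7% (SRF siRNA) of all tested genes fell. This group held the 2 largest differences between siRNAs among the members. RRM2, the small subunit of ribonucleotide reductase, which makes deoxyribonucleotides, read 8.84, 8.44 and 8.49 in control vehicle, 2.88, 4.08 and 3.94 in control R1881, 9.78, 9.76 and 9.90 in SRF vehicle, and 7.64, 7.92 and 7.96 in SRF R1881 arrays. The 4 groups did not overlap, and the control R1881 arrays lay near the level of dim probe sets. RRM2 changed by -4.96 ± 0.25 (SE), 31.1-fold down, with control siRNA (adjusted p = 6.62e-09, limma) and by -1.97 ± 0.25, 3.92-fold down, with SRF siRNA (adjusted p = 3.26e-05, limma). The difference between these effects was 2.99 ± 0.35 (adjusted p = 9.34e-05, limma). A second, dimmer RRM2 probe set gave -5.67 and -2.34.

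TYMS, thymidylate synthase, which makes thymidylate and is the target of fluorouracil, read 9.93, 9.69 and 9.94 in control vehicle and 5.39, 5.67 and 5.97 in control R1881 arrays. With SRF siRNA it read 10.76, 10.60 and 10.61 in vehicle and 8.98, 9.18 and 9.05 in R1881. Each group stood clear of the others, and every TYMS value was above 4. The fall was 18.1-fold with control siRNA (-4.18 ± 0.13 on the log2 scale) and 3.01-fold with SRF siRNA (-1.59 ± 0.13), a difference of 2.59 ± 0.18 (adjusted p = 1.86e-06, limma). A second TYMS probe set gave -4.50 and -1.91.

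TK1, the cytosolic thymidine kinase of the salvage pathway, read 6.36, 6.23 and 5.93 in control vehicle, 2.98, 3.65 and 3.80 in control R1881, 7.03, 7.15 and 7.58 in SRF vehicle, and 5.01, 4.98 and 5.63 in SRF R1881 arrays. The groups did not overlap. TK1 changed by -2.70 ± 0.23 with control siRNA and -2.05 ± 0.23 with SRF siRNA. The difference, 0.65 ± 0.33, did not pass (adjusted p = 0.184, limma). With values under 4 set to 4 the changes were -2.18 and -2.05, a difference of 0.13. A second, dimmer TK1 probe set gave -1.49 and -1.71, a difference of -0.22 that did not pass. The 2 remaining genes of the group fell by similar amounts under both siRNAs. RRM1, the large reductase subunit, changed by -0.58 and -0.54, and DUT, the dUTPase that keeps uracil out of DNA, by -0.54 and -0.53, with differences of 0.04 ± 0.14 and 0.01 ± 0.09.

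Of the 14 tested licensing and helicase genes 10 fell with R1881 under control siRNA and 12 under SRF siRNA, with medians of -1.01 and -0.68, and none rose. These were 71.4% and 85.7%, where 33.8% and 27.7% of all tested genes fell. GINS1, a GINS subunit, read 7.61, 7.06 and 7.29 in control vehicle, 4.77, 4.86 and 5.71 in control R1881, 8.14, 7.87 and 8.14 in SRF vehicle and 6.41, 6.82 and 6.98 in SRF R1881 arrays. The third control R1881 array was the highest of that group, and no 2 groups overlapped. GINS1 changed by -2.21 ± 0.23, 4.63-fold down, and by -1.31 ± 0.23, 2.49-fold down. The difference of 0.90 ± 0.33 did not pass (adjusted p = 0.0718, limma), but passed without that array, at 1.19, and without the first SRF R1881 array, at 1.06.

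The MCM helicase subunits moved together in control cells: all 6 of MCM2 to MCM7 fell. MCM2 read 7.34, 7.06 and 6.91 in control vehicle, 5.51, 5.27 and 5.49 in control R1881, 7.90, 7.64 and 8.05 in SRF vehicle and 6.74, 6.77 and 6.76 in SRF R1881 arrays. MCM4 read 7.65, 7.39 and 7.49, then 5.96, 5.79 and 5.58, then 8.47, 8.14 and 8.32, and 7.20, 7.38 and 7.01 in the same order of groups. In both genes the SRF R1881 arrays lay far above the control R1881 arrays and just below the control vehicle arrays. The changes were -1.68 ± 0.12 and -1.11 ± 0.12 for MCM2, and -1.73 ± 0.13 and -1.11 ± 0.13 for MCM4.

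For 5 of these 6 subunits the R1881 effect was weaker with SRF siRNA. The differences were 0.57 ± 0.17 for MCM2 (adjusted p = 0.0331, limma), 0.50 ± 0.15 for MCM3, 0.62 ± 0.18 for MCM4, 0.66 ± 0.13 for MCM6 (adjusted p = 0.00304, limma) and 0.45 ± 0.13 for MCM7. MCM6 changed by -0.93 and -0.27, MCM3 by -1.21 and -0.71, and MCM7 by -1.10 and -0.65. MCM5 fell with control siRNA by 0.45 on the log2 scale and changed by -0.09 with SRF siRNA, a difference of 0.36 ± 0.24 that did not pass. Among these differences only that of MCM6 passed in every fit that left out 1 array. The MCM4 difference was not called with its most variable probe set, at 0.48, nor with the GAPDH covariate, at 0.44.

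MCM10, which helps to activate the helicase, was dim, at 4.22, 3.74 and 3.14 in control vehicle, 2.55, 2.66 and 2.63 in control R1881, 4.23, 5.29 and 5.17 in SRF vehicle and 3.09, 3.10 and 2.62 in SRF R1881 arrays. R1881 arrays of both siRNAs were at background. MCM10 changed by -1.09 ± 0.29 and -1.96 ± 0.29, and the first of these calls was lost when values under 4 were set to 4 (-0.07) or with the GAPDH covariate (-0.52). The difference, -0.87 ± 0.41, passed without the first SRF vehicle array, at -1.21. CDC45, the helicase cofactor, changed by -1.25 and -0.79, and CDC6, a loading factor, by -0.55 and -0.90. CDC45 was also dim: it exceeded 4 on 5 arrays, all in the vehicle groups, and read 2.37, 3.36 and 2.69 in control R1881. It passed the filter through the groups where it was higher, so the sizes of its falls are not firm. ORC6, GINS2 and CDT1 passed with SRF siRNA, where they fell by 0.64, 0.35 and 0.46 on the log2 scale, and not with control siRNA; their differences between siRNAs did not pass. A second, dimmer CDT1 probe set was called lower under both siRNAs, at -0.88 with control siRNA and -0.80 with SRF siRNA. GINS3 passed in neither, at -0.035 and -0.0029.

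**Figure D3:**
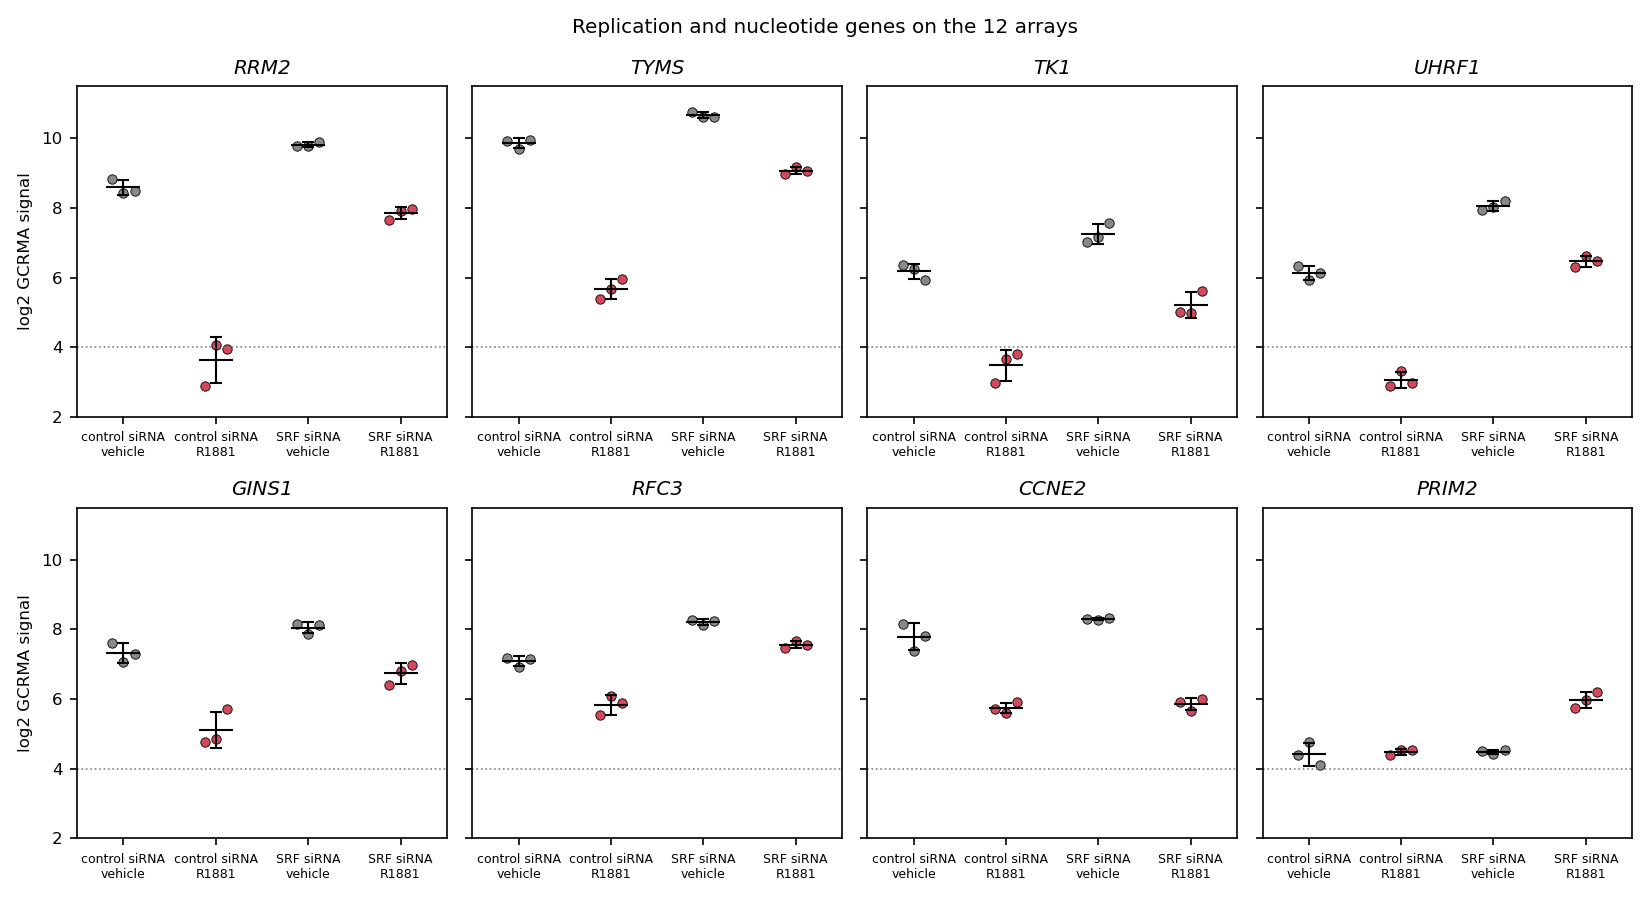
Log2 signal of RRM2, TYMS, TK1, UHRF1, GINS1, RFC3, CCNE2 and PRIM2 on every array (points), with the mean and SD of each group of 3 (bars); the dotted line marks 4, the level used in the filter. RRM2, TK1 and UHRF1 reach or pass below the line in the control R1881 group, CCNE2 falls to between 5.60 and 5.99 under both siRNAs, and PRIM2 is high in the SRF R1881 group alone.

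The polymerase, clamp and clamp loader genes were the most mixed group. Of 17 tested, 8 fell and 2 rose with control siRNA (median -0.41), and 4 fell and 3 rose with SRF siRNA (median -0.18). Those that fell made up 47.1% and 23.5% of the group, where 33.8% and 27.7% of all tested genes fell, so the second share was no higher than over all genes. RFC3, a small clamp loader subunit, read 7.19, 6.93 and 7.16 in control vehicle, 5.54, 6.10 and 5.88 in control R1881, 8.27, 8.12 and 8.24 in SRF vehicle and 7.46, 7.66 and 7.54 in SRF R1881 arrays. All SRF siRNA arrays were above all control siRNA arrays. RFC3 changed by -1.26 ± 0.13 and -0.65 ± 0.13, a difference of 0.60 ± 0.18 (adjusted p = 0.0307, limma).

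PCNA, the sliding clamp, fell by 0.85 on the log2 scale with control siRNA and by 0.50 with SRF siRNA. FEN1, which trims the flaps of lagging strand fragments, changed by -0.41 and -0.52, and PRIM1, the catalytic primase subunit, by -0.59 and -0.78. POLA1, the catalytic subunit of polymerase alpha, fell with control siRNA (-0.94 ± 0.20) and was at -0.36 ± 0.20 with SRF siRNA, which did not pass. POLD3, a polymerase delta subunit, likewise gave -0.56 ± 0.14 and -0.06 ± 0.14. Their differences of 0.58 ± 0.28 and 0.50 ± 0.19 did not pass. POLE and POLD1, the catalytic subunits of polymerases epsilon and delta, were at -0.50 and -0.45 with control siRNA and at -0.23 and -0.16 with SRF siRNA, and did not pass in either.

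PRIM2, the large primase subunit, went against its partner PRIM1. It read 4.40, 4.76 and 4.10 in control vehicle, 4.38, 4.53 and 4.54 in control R1881, 4.51, 4.42 and 4.53 in SRF vehicle, and 5.73, 5.97 and 6.20 in SRF R1881 arrays. The first 3 groups overlapped and the SRF R1881 arrays were all higher. PRIM2 rose 2.79-fold with R1881 under SRF siRNA (1.48 ± 0.15, adjusted p = 5.35e-06, limma) and was at 0.07 ± 0.15 under control siRNA. The difference was 1.41 ± 0.21 (adjusted p = 0.000569, limma). With the GAPDH covariate the value under control siRNA was -0.55, called lower, and the difference was 1.79. PRIM2 had 1 probe set.

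RFC5, another clamp loader subunit, was the member whose probe sets disagreed. The brightest read 10.20, 10.31 and 10.42 in control vehicle, 10.87, 11.02 and 10.94 in control R1881, 9.75, 9.91 and 9.73 in SRF vehicle and 10.44, 10.46 and 10.41 in SRF R1881 arrays, a rise of 0.64 ± 0.08 under each siRNA. The 2 dimmer RFC5 probe sets gave -0.90 and -0.61 with control siRNA and -0.27 and -0.48 with SRF siRNA. No direction is therefore given for RFC5 as a gene. Of the 18 members with more than 1 passing probe set, RFC5 was the only one with opposite calls.

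RFC1, the large clamp loader subunit, read 7.74, 7.55 and 7.72 in control vehicle, 7.98, 8.05 and 8.01 in control R1881, 7.38, 7.68 and 7.69 in SRF vehicle, and 7.82, 7.77 and 7.62 in SRF R1881 arrays. It rose with control siRNA by 0.35 ± 0.09; with SRF siRNA the groups overlapped, at 0.15 ± 0.09. RPA3, the small RPA subunit, read 9.89, 9.54 and 9.56, then 9.71, 9.82 and 9.73, then 9.35, 9.29 and 9.12, and 9.49, 9.56 and 9.67 in the same order. RPA3 rose with SRF siRNA by 0.32 ± 0.10, a call that was lost without the third SRF vehicle array (0.26) or the third SRF R1881 array (0.28). RPA1, the large subunit, and RPA2, the middle one, fell with control siRNA by 0.53 and 0.39 on the log2 scale and were at -0.18 and 0.03 with SRF siRNA. Their differences of 0.35 ± 0.11 and 0.43 ± 0.12 passed (adjusted p = 0.0332 and 0.0205, limma). RFC2, RFC4 and POLA2 passed in neither R1881 comparison.

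The 3 genes of S-phase entry were called lower under both siRNAs, E2F8 with control siRNA from values already under 4. Over all tested genes 33.8% fell with control siRNA and 27.7% with SRF siRNA. CCNE1 and CCNE2 encode cyclins E1 and E2, which drive CDK2 at the start of S phase, and they differed in how far SRF siRNA altered the R1881 effect. CCNE1 read 5.66, 5.93 and 5.75 in control vehicle, 4.33, 4.31 and 4.26 in control R1881, 6.58, 6.67 and 6.63 in SRF vehicle and 5.60, 5.89 and 5.97 in SRF R1881 arrays. With SRF siRNA and R1881 it was back in the range of control vehicle, where the arrays overlapped. CCNE1 changed by -1.48 ± 0.10 and -0.81 ± 0.10, a difference of 0.67 ± 0.14 (adjusted p = 0.00477, limma).

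CCNE2 read 8.16, 7.39 and 7.82 in control vehicle and 8.31, 8.26 and 8.33 in SRF vehicle, and fell to 5.72, 5.60 and 5.91 in control R1881 and to 5.91, 5.65 and 5.99 in SRF R1881 arrays. The R1881 groups overlapped. CCNE2 changed by -2.05 ± 0.16 and -2.45 ± 0.16, and the difference of -0.40 ± 0.23 did not pass, with all arrays (adjusted p = 0.234, limma). It passed without the first control vehicle array, at -0.59, and when all passing probe sets were averaged, at -0.62, still below 0. E2F8, an atypical E2F that represses E2F targets late in S phase, was dim, at 3.64, 3.66 and 3.61, 2.71, 3.12 and 2.77, 5.17, 5.02 and 5.70, and 3.87, 4.34 and 3.73 in the same order of groups. It changed by -0.77 ± 0.19 and -1.31 ± 0.19. All control siRNA values of E2F8 were under 4, so that setting such values to 4 left no change with control siRNA and a called difference of -1.18.

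UHRF1, which recruits the maintenance DNA methyltransferase to newly copied DNA, was among the members with large changes. It read 6.32, 5.94 and 6.12 in control vehicle, 2.89, 3.32 and 2.98 in control R1881, 7.93, 8.03 and 8.20 in SRF vehicle, and 6.32, 6.61 and 6.47 in SRF R1881 arrays. With SRF siRNA and R1881 it was thus at or above its control vehicle level, while control R1881 arrays were near background. UHRF1 fell 8.36-fold with control siRNA (-3.06 ± 0.13) and 3.01-fold with SRF siRNA (-1.59 ± 0.13), and the difference was 1.47 ± 0.19 (adjusted p = 0.000178, limma). Both sizes depended on the low values: with values under 4 set to 4 the change with control siRNA was -2.13 and the difference 0.54, still called.

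DNMT1, the maintenance methyltransferase itself, changed by -0.85 ± 0.11 and -0.34 ± 0.11, a difference of 0.51 ± 0.16 (adjusted p = 0.0362, limma). CHAF1A, the large subunit of chromatin assembly factor 1, read 6.96, 7.01 and 7.09 in control vehicle, 6.40, 5.91 and 6.49 in control R1881, 7.38, 7.51 and 7.24 in SRF vehicle and 6.54, 6.44 and 6.51 in SRF R1881 arrays. The R1881 arrays were below the vehicle arrays under both siRNAs, and the R1881 groups overlapped each other. CHAF1A changed by -0.75 ± 0.13 and -0.88 ± 0.13, and its partner CHAF1B was at 0.02 and -0.06 and did not pass.

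Both tested repair genes fell under both siRNAs with no difference that passed. Over all tested genes 33.8% fell with control siRNA and 27.7% with SRF siRNA. BRCA1, of homologous recombination, read 5.37, 5.29 and 5.37 in control vehicle, 4.49, 4.92 and 4.45 in control R1881, 5.99, 5.60 and 5.76 in SRF vehicle and 5.31, 5.31 and 5.28 in SRF R1881 arrays. FANCI, of the Fanconi pathway for crosslinked DNA, read 5.88, 6.13 and 6.17, then 4.39, 4.84 and 5.28, then 6.61, 6.80 and 6.56, and 5.21, 5.43 and 5.82 in the same order. For both genes R1881 arrays lay below the vehicle arrays of the same siRNA. BRCA1 changed by -0.72 ± 0.12 and -0.48 ± 0.12, and FANCI by -1.23 ± 0.20 and -1.17 ± 0.20. With the GAPDH covariate the BRCA1 change with control siRNA, -0.66, was no longer called. The untested members stayed dim on nearly every array: BLM at 2.07 to 3.48, EXO1 at 2.41 to 4.58, CLSPN at 2.77 to 3.01, ORC1 at 2.41 to 2.91, POLE2 at 2.78 to 4.11 and LIG1 at 2.25 to 3.73.

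RNA integrity moved with the hormone in control cells: the GAPDH 3′ to 5′ difference was 0.32 higher with R1881 under control siRNA (p = 0.1 by an exact permutation test, two-sided, which at 3 against 3 cannot go lower) and 0.13 higher under SRF siRNA (exact p = 0.3). With this difference as a covariate 28 and 29 members were lower with R1881 under control and SRF siRNA, against 31 and 29 without it. Over all tested genes 2434 and 2708 were lower with the covariate, against 3467 and 2839 without it. The same difference for ACTB was 0.13 higher with R1881 under control siRNA (exact p = 0.2) and under SRF siRNA (exact p = 0.7). The covariate fits used GAPDH only.

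SRF siRNA raised many of the genes that R1881 lowered. In vehicle 25 of 45 members were higher than with control siRNA (55.6%), 5 were lower and 15 did not pass, where 30.7% of all tested genes were higher and 25.0% lower. The median member changed by 0.44, against 0.04 over all genes. In R1881 29 members were higher (64.4%), 3 lower and 13 did not pass, where 33.6% of genes were higher and 25.4% lower, and the median was 0.65 against 0.06. These comparisons use the same 12 arrays as those of R1881, so they are a second view of the same values and no independent evidence. In both hormone conditions 21 members were higher, 8 were higher in R1881 only and 4 in vehicle only. No such overlap over all tested genes is given beside these counts, which rest on separate tests.

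**Figure D4:**
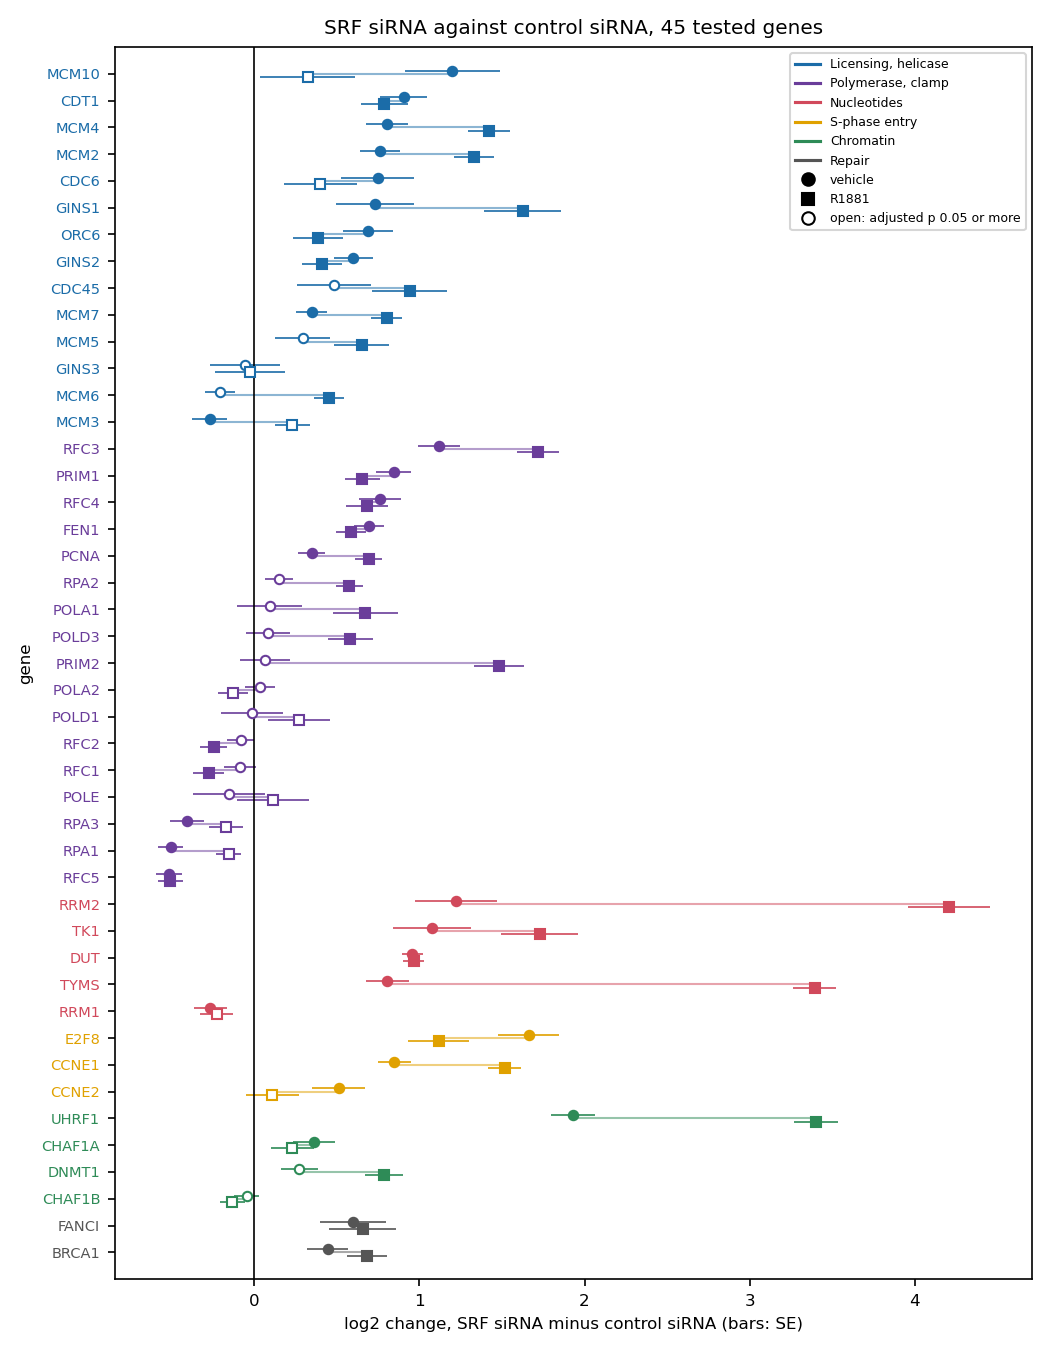
Log2 change with SRF siRNA against control siRNA for the 45 tested genes, with its standard error, in vehicle (circles) and in R1881 (squares); filled symbols have an adjusted p under 0.05 in limma, and a line joins both values of a gene. RRM2, UHRF1 and TYMS reach 4.21, 3.40 and 3.39 in R1881, and the brightest RFC5 probe set is below 0 in both.

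In vehicle UHRF1 (1.93 ± 0.13, 3.80-fold), E2F8 (1.66 ± 0.19), RRM2 (1.22 ± 0.25), MCM10 (1.20 ± 0.29), RFC3 (1.12 ± 0.13) and TK1 (1.08 ± 0.23) rose at least 2-fold with SRF siRNA. DUT rose by 0.96 ± 0.06, CDT1 by 0.91, CCNE1 by 0.85, PRIM1 by 0.84, TYMS by 0.81, MCM4 by 0.80 and MCM2 by 0.76. E2F8 and MCM10 exceeded 4 on 4 arrays each, mostly those of SRF vehicle, and so passed the filter through the group called higher; with values under 4 set to 4 their rises were 1.30 and 0.82. By role, 9 of 14 licensing genes, 4 of 5 nucleotide genes, 3 of 3 entry genes, 2 of 4 chromatin genes, 2 of 2 repair genes and 5 of 17 polymerase and clamp genes rose. The licensing share was 64.3% and the polymerase and clamp share 29.4%, where 30.7% of all tested genes were higher. The polymerase and clamp share was thus no higher than over all genes. RPA1, RPA3, RRM1 and MCM3 fell, by 0.51, 0.41, 0.27 and 0.27 on the log2 scale, as did the brightest probe set of RFC5. RFC4, another small clamp loader subunit, rose by 0.76.

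Several of the vehicle calls rested on single arrays. GINS1, at 0.73 ± 0.23, was not called without the second control vehicle array (0.60) or without the first or the third SRF vehicle array (0.69 each). CCNE2, at 0.51 ± 0.16, was not called without the second control vehicle array (0.31), FANCI, at 0.60 ± 0.20, without the first control vehicle (0.51) or second SRF vehicle array (0.53), and CHAF1A, at 0.36 ± 0.13, without the first or second array of either group (0.30 to 0.36). The GAPDH difference was 0.22 higher with SRF siRNA in vehicle (exact p = 0.1), and with it as a covariate 15 members were called higher in place of 25, TK1 at 0.65 no longer among them. Over all tested genes 1899 were then called higher in place of 3151. The lower members numbered 3 in place of 5 without the first control vehicle array, without any 1 of the control R1881 arrays, or without the second SRF vehicle array.

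In R1881 the largest rises with SRF siRNA were those of RRM2, UHRF1 and TYMS. RRM2 was 18.5-fold higher with SRF siRNA (4.21 ± 0.25, adjusted p = 5.96e-08, limma), UHRF1 10.6-fold (3.40 ± 0.13), TYMS 10.5-fold (3.39 ± 0.13), TK1 3.31-fold (1.73 ± 0.23), RFC3 3.29-fold (1.72 ± 0.13) and GINS1 3.09-fold (1.63 ± 0.23). CCNE1 (1.52), PRIM2 (1.48), MCM4 (1.42), MCM2 (1.33) and E2F8 (1.12) were also at least 2-fold higher. UHRF1, TK1 and 2 of 3 RRM2 values in control R1881 were under 4, so their folds depend on the background estimate: with such values set to 4 the changes were 2.46, 1.21 and 3.82, against 3.39 for TYMS, which stayed above 4. E2F8 rose from values near background, where its call was lost once values under 4 were set to 4 (0.11). CCNE2 (0.11 ± 0.16), CDC6 (0.40 ± 0.22), MCM10 (0.32 ± 0.29) and CHAF1A (0.23 ± 0.13) did not pass; CHAF1A passed without the third control R1881 array, at 0.34. FANCI (0.66 ± 0.20) lost its call without the first control R1881 array (0.43) or the third SRF R1881 array (0.49). RFC1 and RFC2 were lower, by 0.28 and 0.25 on the log2 scale, with the brightest RFC5 probe set; 1 lower member was left without the second or the third control R1881 array. RFC1 lost its call without either of those, at -0.26 and -0.28, or the third SRF R1881 array, at -0.22. The GAPDH difference was 0.03 higher with SRF siRNA in R1881 (exact p = 0.8), and 28 members were called higher with it as a covariate. The ACTB difference, however, was 0.31 higher with SRF siRNA in R1881 (exact p = 0.1) and 0.32 higher in vehicle (exact p = 0.1). The part of this shift in the members' results was not tested.

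The order of the 4 group means was shared by most members. For 30 of 45 (66.7%) the SRF vehicle group was highest and the control R1881 group lowest, against 23.8% of all tested genes. The pair of middle groups did not keep 1 order. UHRF1, RFC3 and CCNE1 had higher means in SRF R1881 than in control vehicle, with overlapping arrays for UHRF1 and CCNE1. RRM2, TYMS, TK1, GINS1 and CCNE2 had lower means there. PRIM2 did not share the order: its SRF R1881 mean was the highest, at 5.97, and its control vehicle mean the lowest, at 4.42.

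The calls can be set beside the octamers. Among members with a window, 13 of 18 tested genes with an octamer fell under control siRNA (median -0.89) and 11 of 19 without one (median -0.53). Under SRF siRNA 14 of 18 and 11 of 19 fell, both with a median of -0.52. With SRF siRNA in vehicle 11 of 18 and 10 of 19 were higher, and in R1881 13 of 18 and 10 of 19. These counts are a description of the members and were not tested.

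The other genes of the pathways followed the members less closely. Of 125 tested genes from 151 listed, 64 fell and 22 rose with R1881 under control siRNA, and 51 fell and 18 rose under SRF siRNA, with medians of -0.28 and -0.17. The lower shares, 51.2% and 40.8%, compare with 33.8% and 27.7% of all tested genes. Among 30 origin and fork genes 17 fell and 3 rose with control siRNA, 56.7% and 10%. TOP2A, the topoisomerase that untangles replicated DNA, changed by -2.55 and -2.50, and ORC5, an origin recognition subunit, by 2.19 and 1.39 in the opposite direction. Among 27 nucleotide genes 12 fell and 8 rose, 44.4% and 29.6%, near the 33.8% and 26.9% of all genes. IMPDH2 and IMPDH1, isoforms of the rate-limiting enzyme of guanine nucleotide synthesis, moved apart, at -1.67 and 1.58 with control siRNA and -0.80 and 1.17 with SRF siRNA. SAMHD1, which breaks down deoxyribonucleotides, changed by -1.55 and -0.99, and DHODH, of pyrimidine synthesis, by 0.71 and 1.02.

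Among 15 chromatin and mismatch repair genes 8 fell and 3 rose under control siRNA, 53.3% and 20%, where 33.8% and 26.9% of all tested genes did. NASP, a histone chaperone, changed by -1.21 and -0.72, EZH2 by -1.32 and -1.20, and ATAD2, a coactivator of the androgen receptor and E2F, by 1.90 and 1.46. Among 34 repair and checkpoint genes 19 fell and 4 rose, 55.9% and 11.8%. BARD1, the partner of BRCA1, fell more than BRCA1 did, at -2.91 ± 0.12 and -2.43 ± 0.12, while HUS1, of the checkpoint clamp, was at 1.37 and 0.86. Among 19 genes of E2F, RB and S-phase kinases 8 fell and 4 rose, 42.1% and 21.1%, near the 33.8% and 26.9% of all genes. CCNA2, cyclin A2, changed by -1.72 and -1.62 and SKP2 by -1.53 and -1.09. CDC25A, the phosphatase that activates CDK2, rose with control siRNA (1.66 ± 0.20) and was at -0.21 ± 0.20 with SRF siRNA, a difference of -1.87 (adjusted p = 0.000498, limma). The CDK inhibitor CDKN1C exceeded 4 in SRF R1881 arrays alone, at 4.01 to 4.76, and lay at 2.42 to 3.14 on the other 9; it passed the filter through that group, so its change of 1.50 with SRF siRNA has no firm size.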

How the data were processed

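The 12 arrays of LNCaP cells were grouped by the labels. The authors deposited log2 signal values, 1 per probe set and array, made with GCRMA per the submitters' processing notes; its version and parameters are not given in the sources used here. GCRMA subtracts a sequence-based background, so a fold against a value near 2 to 3 depends on that estimate. Of 54675 probe sets, 41097 carried 1 symbol, 1801 several and 11777 none or were controls; 41043 of the first were matched to current gene numbers, which changed 0 symbols. A probe set had to exceed 4 on at least 3 of the 12 arrays, and the highest mean stood for a gene, which left 10265 genes.

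Group means (4 groups) were fitted per gene with limma 3.58.1 in R 4.3.3, with Benjamini-Hochberg adjustment over all 10265 genes and calls at an adjusted p under 0.05. SE is the moderated standard error. The number of arrays limits the precision. Promoter letters came from RefSeq (GRCh38.p14), and figures from matplotlib 3.10.9 in Python 3.11.15. The fit was tested on simulated data. RNA integrity was compared by exact permutation.

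Members, lists, the naming rule and alternatives were chosen with earlier results of these data known, and no set test was run. Values on every array are given for the 2 members of each role with the largest mean R1881 change, for members whose difference of R1881 effects or SRF siRNA change was called at 2-fold or more, and for members called against most of their role; other genes were named as the 2 with the largest mean R1881 change in each direction per list, with SRF, KLK3 and the markers as checks. Alternatives concerned the filter, a floor, the choice of probe set, scaling, variance prior, a GAPDH covariate, a replicate block, the threshold, a fit on fewer groups and arrays left out.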

Additional observations from a re-analysis of the deposited data

Results flagged for a closer look

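For 14 members the effect of R1881 differed between the siRNAs by the interaction test in limma, each with a smaller fall, or a rise, under SRF siRNA. The log2 differences, SRF siRNA minus control siRNA, were 2.99 for RRM2, 2.59 for TYMS, 1.47 for UHRF1, 1.41 for PRIM2, 0.67 for CCNE1, 0.66 for MCM6, 0.62 for MCM4, 0.60 for RFC3, 0.57 for MCM2, 0.51 for DNMT1, 0.50 for MCM3, 0.45 for MCM7, 0.43 for RPA2 and 0.35 for RPA1. PRIM2 differed from the others in that it was level under control siRNA, at 0.07, and rose under SRF siRNA, at 1.48. MCM3, MCM7, RFC3 and RPA1 were not called when the third array of both SRF siRNA groups was left out, which left 10.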

How the results depend on the processing

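The counts of members lower with R1881, 31 and 29, were 29 to 34 and 26 to 31 with 1 array left out. They were 28 and 29 with values under 4 set to 4 or with the GAPDH covariate. At an adjusted p under 0.01 the calls of MCM5 and CDC6 under control siRNA were lost. Those of MCM6, CDT1, GINS2, CDC45 and DNMT1 under SRF siRNA were lost as well. The count with a positive difference of R1881 effects, 14, was 9 with no filter, 9 with the GAPDH covariate, 6 at an adjusted p under 0.01 and 7 to 15 with 1 array left out; the count with a negative one, 0, was 3 with values under 4 set to 4, 1 with averaged probe sets or the most variable one, and 0 to 1 with 1 array left out. Members higher with R1881 under control siRNA, 2, were 1 with averaged probe sets and 0 with the most variable one. Members lower with SRF siRNA in vehicle, 5, were 3 with no filter, a median shift, the covariate or the stricter threshold, 2 with the most variable probe set and 3 to 5 with 1 array left out. Members higher there, 25, were 15 with the covariate. Members lower in R1881, 3, were 1 at the stricter threshold and 1 to 4 with 1 array left out.

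RFC5 reversed with averaged probe sets, to -0.29 and -0.0346 for R1881 and 0.0682 and 0.33 for SRF siRNA, and with the most variable one, to -0.90, -0.27, 0.28 and 0.92. PRIM2 reversed to -0.55 with the covariate and CHAF1A to -0.0345 in vehicle with the most variable probe set. The causes were not tested. Over all genes, the covariate gave 1490 in place of 2758 higher with R1881 under control siRNA and 1899 in place of 3151 higher with SRF siRNA in vehicle, and the stricter threshold 627 and 740 in place of 1082 and 1359 differences. The labels do not say whether same-numbered arrays were handled together. Among 18 same-numbered pairs 0 had deviations from their group means correlated above 0.1 (-0.214 to 0.099). Deviations within groups this small cannot settle whether the arrays were paired. The replicate block gave 30 and 29 members lower with R1881 and 13 positive differences.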
